A study of Mus musculus with 2 samples.

Results

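The genes described here are 45 genes of the T cell receptor (TCR) complex and its first signaling steps, measured in TCRαβ+CD8αα+ intraepithelial lymphocytes (IELs), the T cells that sit between the epithelial cells of the gut. They were taken by name and not by their values: every gene probe whose accession belonged to one of the 45 symbols was used, which gave 60 probes, and the 45 genes are among 20887 genes named on the array. The series holds 2 arrays of 1 color, 1 for each genotype, so no difference between genotypes has a replicate check and no p-value is given. The Control array carried RNA of C57BL/6 mice with floxed Rbpj alleles (Rbpjf/f), and the array labelled RFF4 carried RNA of CD4-Cre Rbpjf/f mice of the same strain. Both pools came from small intestine of mice aged 8 to 12 weeks, mixed over males and females and over several isolations, and 150 ng of RNA was labelled for each array. Cells were sorted as TCRβ+CD8α+ after CD4+, TCRγδ+ and CD8β+ cells were gated out. CD4-Cre acts from the stage at which thymocytes express CD4, so by its label the RFF4 pool holds the cells found in the gut after Cre acted in that lineage. The label of the Control mice names no Cre, while the study's text describes controls that carry CD4-Cre, so an effect of Cre itself cannot be told apart from that of Rbpj.

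A T cell reads antigen through the TCR, whose own chains carry no enzyme and which signals through the CD3 and zeta chains beside it. Src family kinases phosphorylate these chains, Zap70 or its relative Syk docks on them, and adaptors such as Lat and Lcp2 then gather the enzymes that raise calcium and activate Ras, NF-κB and NFAT. Ubiquitin ligases, phosphatases and inhibitory adaptors hold this chain of events back, and natural IELs are known for TCR complexes that can contain the Fc receptor gamma chain.

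Levels are log2 signals relative to the 75th percentile of the array, and a difference is the RFF4 level minus the Control level. Levels of different genes come from different probes and are not compared. Of the 20887 genes, 13513 had a difference. Among the spots of gene probes, 57.2% were well above background on the Control array and 49.7% on the array labelled RFF4. Probes with 10 spots on each array gave a technical SD for log2 differences of 0.16 over all such probes, 0.073 for levels of 0 or more and 0.24 for levels below 0. It covers the spread of spots within an array and leaves out the spread between mice. The 2 Rbpj probes gave 1.96 in Control and 2.28 in RFF4, and -1.44 and -0.62, and neither was lower in RFF4. Whether they lie inside the deleted exons is not given in the sources used here, so they do not check the labels, and RFF4 below means the array labelled so. Unscaled, 42 of the 45 genes had a lower signal in RFF4, as did most genes on the array, so every difference below is relative to each array's 75th percentile.

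The 250 bases before the transcription start were available from RefSeq (GRCm38.p6) for 32 of the 45 genes, as 44 promoters. They were searched on both strands for GTGGGAA, a word that RBPJ binds, for the ETS word CCGGAAG and for the RUNX word TGTGGTT. Promoters are shown for 3 genes whose differences were among the largest and for 2 genes of the complex whose promoter held the RBPJ word, which is in capitals. The Ubash3a promoter is chr17:31207816-31208065 (plus strand), the first of the Syk promoters is chr13:52583187-52583436 (plus strand), and the Tec promoter is chr5:72868449-72868698 (minus strand). The Zap70 promoter is chr1:36761548-36761797 (plus strand) and the Cd3g promoter is chr9:44980432-44980681 (minus strand). Each is written 5′ to 3′ on the strand of its gene.
Ubash3a: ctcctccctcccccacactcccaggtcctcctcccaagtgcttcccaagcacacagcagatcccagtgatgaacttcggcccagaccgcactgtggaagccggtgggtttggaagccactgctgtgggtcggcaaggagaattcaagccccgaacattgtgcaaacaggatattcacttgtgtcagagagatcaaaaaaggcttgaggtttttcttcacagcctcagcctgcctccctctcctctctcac
Syk: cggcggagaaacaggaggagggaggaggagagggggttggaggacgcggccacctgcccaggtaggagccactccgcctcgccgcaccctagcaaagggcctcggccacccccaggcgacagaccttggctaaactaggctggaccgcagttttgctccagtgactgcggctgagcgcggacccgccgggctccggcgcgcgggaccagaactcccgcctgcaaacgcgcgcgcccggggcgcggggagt
Tec: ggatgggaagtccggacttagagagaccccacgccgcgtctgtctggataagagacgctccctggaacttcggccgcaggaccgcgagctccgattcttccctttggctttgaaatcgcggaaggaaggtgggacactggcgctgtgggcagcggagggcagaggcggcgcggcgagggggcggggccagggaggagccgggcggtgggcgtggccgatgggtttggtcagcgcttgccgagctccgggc
Zap70: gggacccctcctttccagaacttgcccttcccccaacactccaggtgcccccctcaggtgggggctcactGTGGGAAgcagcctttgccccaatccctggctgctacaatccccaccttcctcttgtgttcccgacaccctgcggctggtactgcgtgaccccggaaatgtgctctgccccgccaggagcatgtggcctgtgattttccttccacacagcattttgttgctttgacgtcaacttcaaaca
Cd3g: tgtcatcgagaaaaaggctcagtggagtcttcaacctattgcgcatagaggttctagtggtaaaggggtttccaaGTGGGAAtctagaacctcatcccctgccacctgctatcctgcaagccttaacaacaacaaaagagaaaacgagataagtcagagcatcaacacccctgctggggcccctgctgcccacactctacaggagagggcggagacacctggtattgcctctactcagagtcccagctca

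The RBPJ word was found in 4 of the 44 promoters (9.09%) and in 5.42% of all 32851 promoters in the RefSeq table. It lay 175 bases before the start of Cd3g, 180 before Zap70, 81 before Lat and 7 before a start of Nck1. These 4 genes had log2 differences of 0.36, -0.06, 0.47 and -0.16. None of the 3 words was found in the promoters of Ubash3a, Syk, Tec or Cblb. Cd2 and Lyn, the other genes more than 2-fold higher or lower, were among the 13 genes without a promoter and were not searched. The ETS word was found in the Fcer1g promoter (2.27% of the 44, against 6.91% of all) and the RUNX word in the promoters of Lck and Txk (4.55% against 4.40%). A match is a description of the letters and says nothing of binding.

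Most of the 45 genes differed little between the genotypes. Ubash3a, Cd2 and Syk were more than 2-fold higher in RFF4 (6.67%, against 12.3% of all genes with a difference), and Tec, Cblb and Lyn were more than 2-fold lower (6.67%, against 5.05%). Of the other 39, 38 lay between and Cd8b1 had only a bound. The median difference was -0.12, beside -0.01 over all genes with a difference, and 31 of 45 (68.9%) lay within 0.5 of 0, beside 58.5% of all genes. All but Cd8b1 were well above background on both arrays. The counts of higher and lower genes became 3 and 5 with the median in place of the 75th percentile, where 9.68% and 7.98% of all genes were called. Quantile normalization left Lyn and Tec as the lower genes (beside 5.35% of all genes), and cyclic loess left Tec alone (beside 4.84%). With normexp they were Dok1, Fyn and Tec (beside 3.67%). The counts became 2 and 29 with scaling to the spike-in controls, where 1.39% and 56.7% of all genes were called.

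**Figure D1:**
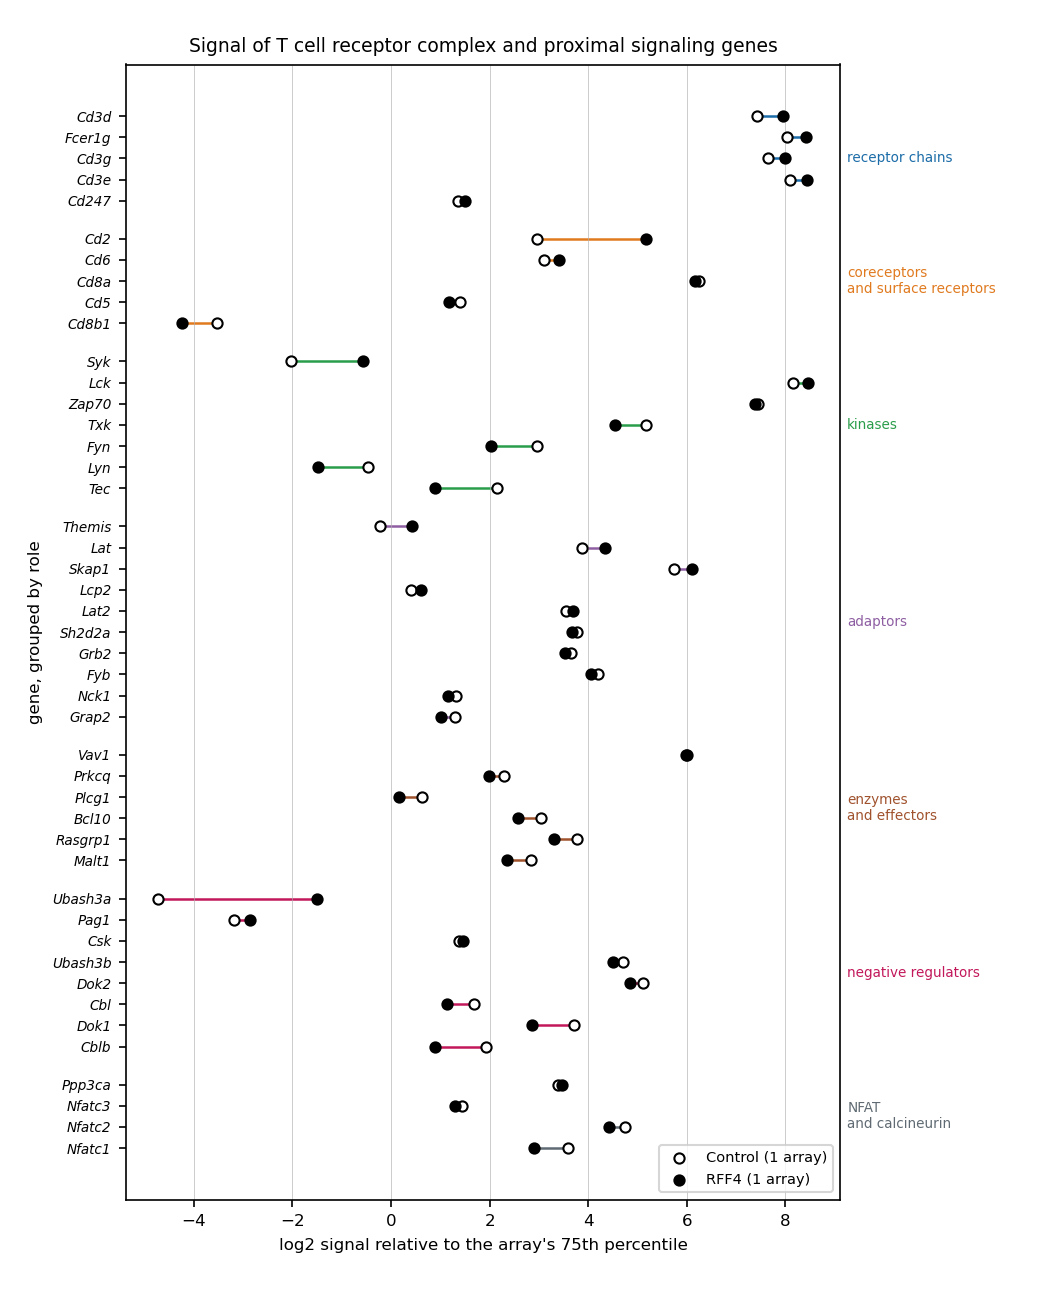
Log2 signal of the 45 genes relative to the 75th percentile of each array (horizontal axis), with Control as open and RFF4 as filled circles, 1 array each, grouped by role. Lines join the arrays. The widest lines belong to Ubash3a, from -4.72 to -1.50, and Cd2, from 2.96 to 5.18, and each probe has its own brightness, so that genes are not to be compared along the axis.

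The plot of signals by genotype shows the receptor chains first, each well above background on both arrays. Cd3e, a signaling chain paired with other CD3 chains, had a level of 8.10 in Control and 8.44 in RFF4. Its partners were at 7.42 and 7.95 (Cd3d) and at 7.64 and 8.00 (Cd3g). Both had a higher level in RFF4, as did Cd247, the zeta chain, at 1.35 and 1.51, and Fcer1g, the Fc receptor gamma chain, at 8.04 and 8.41. The differences of all 5 chains were above 0 (0.15 to 0.54, median 0.36), but quantile normalization gave differences below 0 for Cd3e (-0.25), Cd3g (-0.22), Cd3d (-0.03) and Fcer1g (-0.23), and spike-in scaling gave values below 0 for all 5. No direction can therefore be given for the chains, and none was past 2-fold under these settings. The difference of Fcer1g minus that of Cd247 was 0.22 and ranged from -0.43 to 0.22 over the alternatives.

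Among the coreceptors and surface receptors, Cd2 stood apart from the others. CD2 is an adhesion receptor that T cells share with NK cells and that lowers the threshold of activation. Its brightest probe had a level of 2.96 in Control and 5.18 in RFF4, a difference of 2.22 or 4.66-fold, and 1.14% of all genes had a larger one. The other Cd2 probe was spotted 10 times on each array, with levels from 0.19 to 0.39 (median 0.28) in Control and from 2.55 to 2.68 (median 2.63) in RFF4. No spot of Control reached any spot of RFF4, which concerns the spread of spots within an array and not that between mice. The difference of this probe was 2.35. The scanner signal itself was higher in RFF4, at 8209 against 3965 in Control.

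Cd8a, the chain that forms the CD8αα homodimer by which the cells were sorted, was at 6.24 in Control and 6.18 in RFF4, with a spot SD of 0.029 and 0.028 over 10 spots each. Its other probe gave a difference of 0.17, so the difference had no single direction. Cd8b1, the chain gated out by the sort, was at -3.52 in Control and not well above background in RFF4 at -4.25, so that it was at least 1.65-fold lower in RFF4. Cd5, an inhibitory receptor whose level follows the strength of TCR signals, was at 1.39 and 1.18. Its relative Cd6 was at 3.10 and 3.41, with a second probe that gave 0.33. Cd8a, Cd5 and Cd6 were within 2-fold between the genotypes, while the bound on Cd8b1 leaves its fold unknown.

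**Figure D2:**
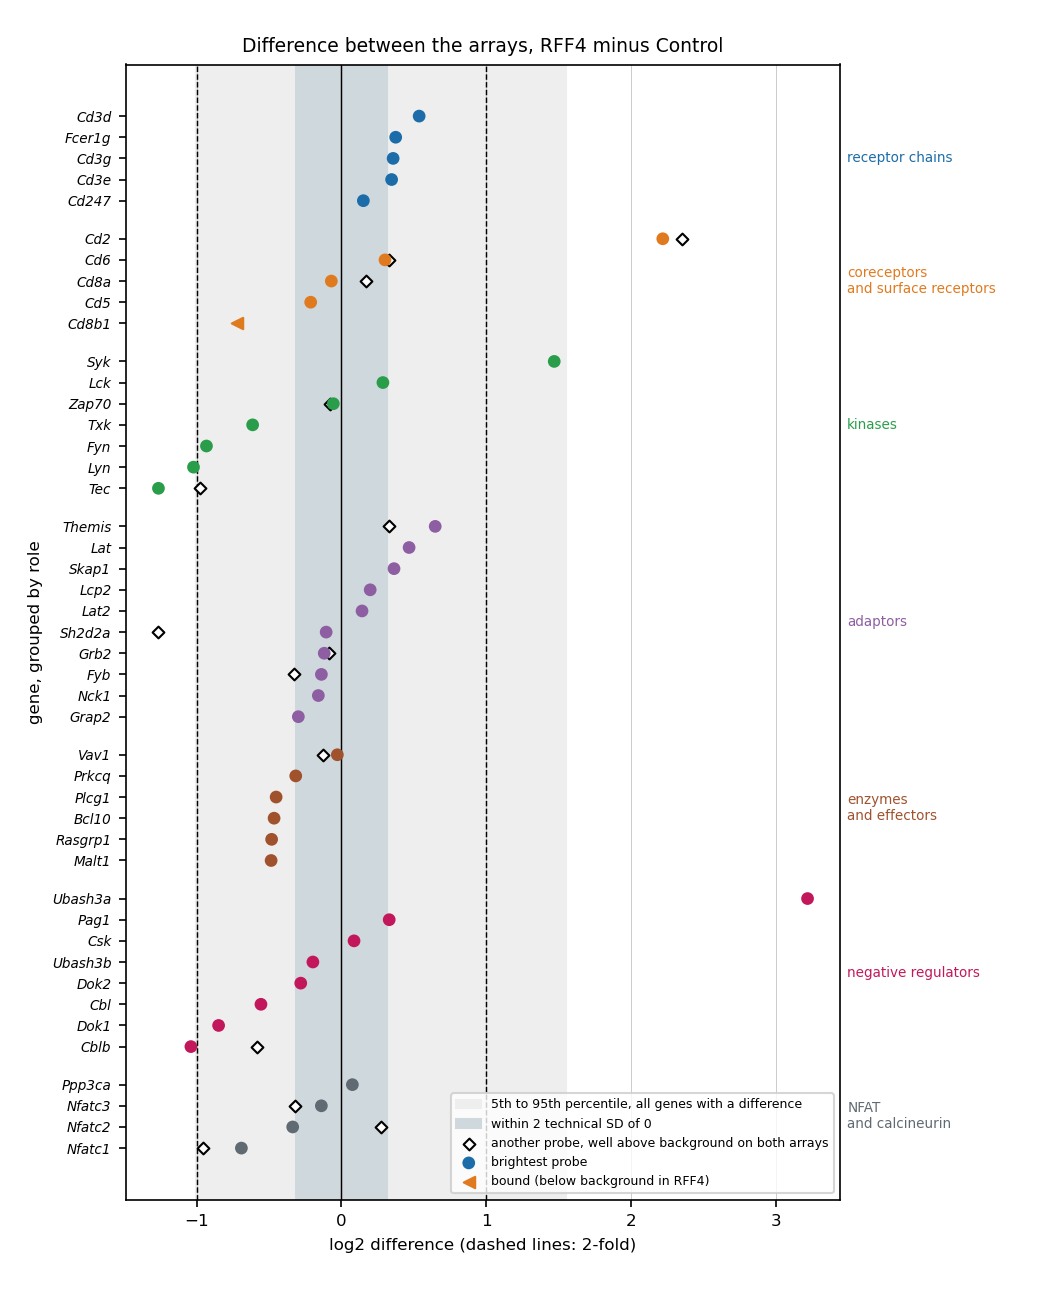
Log2 difference, RFF4 minus Control, of each gene (horizontal axis), by role. Filled circles are the brightest probe, open diamonds another probe of the gene well above background on both arrays, and the triangle a bound. The inner band is 2 technical SD (0.32) on either side of 0, the outer band the 5th to 95th percentile of all genes with a difference, and dashed lines mark 2-fold. Ubash3a at 3.22 and Cd2 at 2.22 lie beyond the outer band on the higher side, and Tec at -1.26, Cblb at -1.04 and Lyn at -1.02 on the lower side.

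The 7 kinases had differences from -1.26 (Tec) to 1.47 (Syk), with a median of -0.61. Syk was more than 2-fold higher (14.3%, against 12.3% of all genes), and Tec and Lyn were more than 2-fold lower (28.6%, against 5.05%). Lyn was under 2-fold with cyclic loess (-0.92) and normexp (-0.72). Lck, the Src family kinase bound to CD8, was at 8.16 in Control and 8.45 in RFF4, and its difference of 0.29 turned to -0.33 with quantile normalization. Zap70, the kinase that docks on phosphorylated CD3 and zeta chains, was at 7.44 and 7.39, and its other probe also gave a difference near 0 (-0.08).

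Syk, the relative of Zap70 that B cells and myeloid cells use, was at -2.03 in Control and -0.56 in RFF4. Its difference was 1.47, or 2.77-fold, on a probe of 1 spot per array. It was 0.35 with spike-in scaling and 1.23 to 1.56 in the other alternatives. Relative to Zap70, Syk was 2.88-fold higher in RFF4, a ratio that no constant shift between the arrays can alter, and 5.99% of all genes had a larger difference than Syk.

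Of the other Src family kinases of the set, Lyn was past 2-fold and Fyn was not. Fyn, which shares substrates with Lck, was at 2.96 in Control and 2.03 in RFF4, a difference of -0.93 or 1.91-fold. Lyn, best known from B cells and myeloid cells, was at -0.46 and -1.48, a difference of -1.02 or 2.03-fold. Relative to Lck, Fyn was 2.33-fold and Lyn 2.48-fold lower, and both gaps were under 2-fold with quantile normalization (-0.57 and -0.72 on the log2 scale) and with cyclic loess, as was that of Lyn with normexp. Tec and Txk are Tec family kinases, which act on phospholipase C. Tec was at 2.15 and 0.89, a difference of -1.26 or 2.40-fold, and its other probe at 1.83 and 0.85, a difference of -0.98. Txk was at 5.17 and 4.55, a difference of -0.61 that did not pass 2-fold. Tec alone remained past 2-fold in the lower direction in each of the 12 alternatives.

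None of the 10 adaptors was past 2-fold, with differences from -0.30 (Grap2) to 0.65 (Themis). Lat, the membrane scaffold phosphorylated by Zap70, was at 3.88 in Control and 4.35 in RFF4. Its relative Lat2 was at 3.55 and 3.70. Lcp2 (SLP-76), which binds the Lat complex through Grap2 (Gads), was at 0.41 and 0.61, and Grap2 at 1.30 and 1.01. The steps between Zap70 and the enzymes thus showed small differences in both directions.

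Grb2, which links Lat to Ras activation, was at 3.64 in Control and 3.53 in RFF4, and Nck1, which links the complex to actin, at 1.32 and 1.16. Skap1 and Fyb (ADAP), which act together on integrins, were at 5.74 and 6.10 and at 4.20 and 4.07. Themis, an adaptor needed for T cell selection in the thymus, was at -0.22 and 0.42, and its other probe gave a smaller difference of 0.33. The probes of Sh2d2a (TSAd), an adaptor of Lck, disagreed: the brighter gave 3.77 and 3.66, and the other 1.41 and 0.14, a difference of -1.26. Over the set, 15 genes had a second probe, and 12 of the 14 second probes well above background on each array lay within 0.5 of the first.

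None of the 6 enzymes and effectors was past 2-fold, and their differences ran from -0.49 to -0.03 (median -0.46). Of all genes with a difference, 6906 of 13513 were below 0, and Vav1 at -0.03 was within the technical SD. Malt1 and Bcl10, partners in the complex that activates NF-κB, were at 2.84 in Control and 2.35 in RFF4, and at 3.04 and 2.58. Prkcq (PKCθ), the kinase upstream of that complex, was at 2.29 and 1.98. Rasgrp1, which loads Ras in T cells, was at 3.78 and 3.30.

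Plcg1, the phospholipase whose products raise calcium and feed Rasgrp1 and Prkcq, was at 0.62 in Control and 0.17 in RFF4, with its other probe dim. Vav1, an exchange factor for Rac, was at 6.01 and 5.98, and its other probe gave -0.13. The differences of all 6 were below 0 under each of the 12 alternatives, and with spike-in scaling all 6 were more than 2-fold lower, as were 56.7% of all genes.

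The negative regulators held the largest difference of the set. Ubash3a (Sts-2) belongs to a family of phosphatase-like proteins that restrain Zap70 and Syk, and is expressed mainly in lymphocytes. Its probe was spotted repeatedly: 9 spots in Control ran from -5.15 to -4.38 (median -4.68), and 10 spots in RFF4 from -1.68 to -1.37 (median -1.48), all well above background. The spots of the arrays did not overlap, which again concerns spots and not mice. The means of -4.72 and -1.50 gave a difference of 3.22, or 9.31-fold, with 0.207% of all genes higher. In scanner units the signals were low, 19.3 in Control and 80.1 in RFF4. Normexp background correction lowered the difference to 1.78, below that of Cd2 in the same setting (1.98).

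Its relative Ubash3b (Sts-1), the broadly expressed member of the family, was at 4.70 in Control and 4.51 in RFF4. The difference of Ubash3b minus that of Ubash3a was -3.42, and it ranged from -3.50 to -2.15 over the alternatives.

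Cblb and Cbl are E3 ubiquitin ligases that mark the active receptor for degradation. Cblb, which sets the need for costimulation, was at 1.93 in Control and 0.89 in RFF4, a difference of -1.04 or 2.06-fold, while its other probe gave -1.58 and -2.16, a difference of -0.58. Cbl was at 1.69 and 1.13, a difference of -0.56. Cblb was past 2-fold in the brightest probe alone, its difference was -0.81 with the mean of its probes, and quantile normalization, cyclic loess and normexp also brought it under 2-fold.

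Dok1, an adaptor that recruits a brake on Ras, was at 3.72 in Control and 2.87 in RFF4, a difference of -0.85 or 1.80-fold. Its partner Dok2 was at 5.12 and 4.84. Csk, which phosphorylates the inhibitory tyrosine of Lck and Fyn, was at 1.38 and 1.47, and Pag1, which anchors Csk at the membrane, at -3.19 and -2.86. The differences of both took either sign over the alternatives, from -1.03 to 0.19 for Csk and from -0.79 with spike-in scaling to 0.71 with normexp for Pag1.

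The NFAT factors and calcineurin, the calcium branch, were within 2-fold. Nfatc1, the NFAT gene that activated T cells induce, was at 3.60 in Control and 2.91 in RFF4, a difference of -0.69, and its other probe gave -0.96. Nfatc2 was at 4.75 and 4.42, with another probe at -1.19 and -0.91 whose difference had the opposite sign, and these probes carry different transcript accessions. Nfatc3 was at 1.44 and 1.30, and Ppp3ca, a catalytic subunit of calcineurin, at 3.39 and 3.46.

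**Figure D3:**
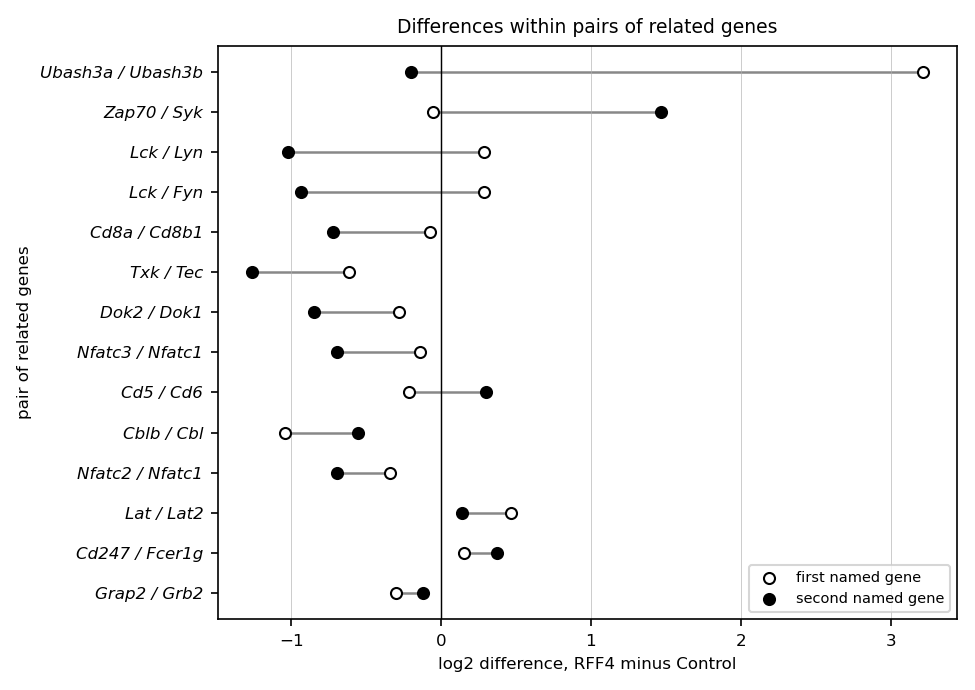
Log2 differences, RFF4 minus Control, of 14 pairs of related genes (horizontal axis). The open circle is the gene named first, the filled circle the gene named second, and the length of the line is the difference of differences, which a constant shift between arrays cannot change. The technical SD of a line is 0.22 over all replicated probes, smaller for bright and larger for dim probes. Ubash3a and Ubash3b lie farthest apart, at 3.22 and -0.20, and Cd8b1 is a bound.

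Comparing relatives within each array removes any constant offset between the arrays, though not one that varies with signal. Of 14 pairs, 4 were more than 2-fold apart: Ubash3a over Ubash3b, Syk over Zap70, and Lck over both Lyn and Fyn. Both Lck gaps fell under 2-fold with quantile normalization (-0.72 for Lyn, -0.57 for Fyn) and with cyclic loess (-0.79 and -0.76). The gaps between Txk and Tec (-0.65), Dok2 and Dok1 (-0.57), Nfatc3 and Nfatc1 (-0.55), Cd5 and Cd6 (0.51) and Cblb and Cbl (0.48) were under 2-fold, each for the second gene minus the first. With cyclic loess the gaps of Txk and Tec (-0.42), Dok2 and Dok1 (-0.44) and Cd5 and Cd6 (0.39) were smaller, as was that of Cblb and Cbl with the mean of their probes (0.25). The remaining gaps lay between -0.35 and 0.22, except for the bound on Cd8b1, and that of Nfatc2 and Nfatc1 grew from -0.35 to -0.79 with the mean of their probes.

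**Figure D4:**
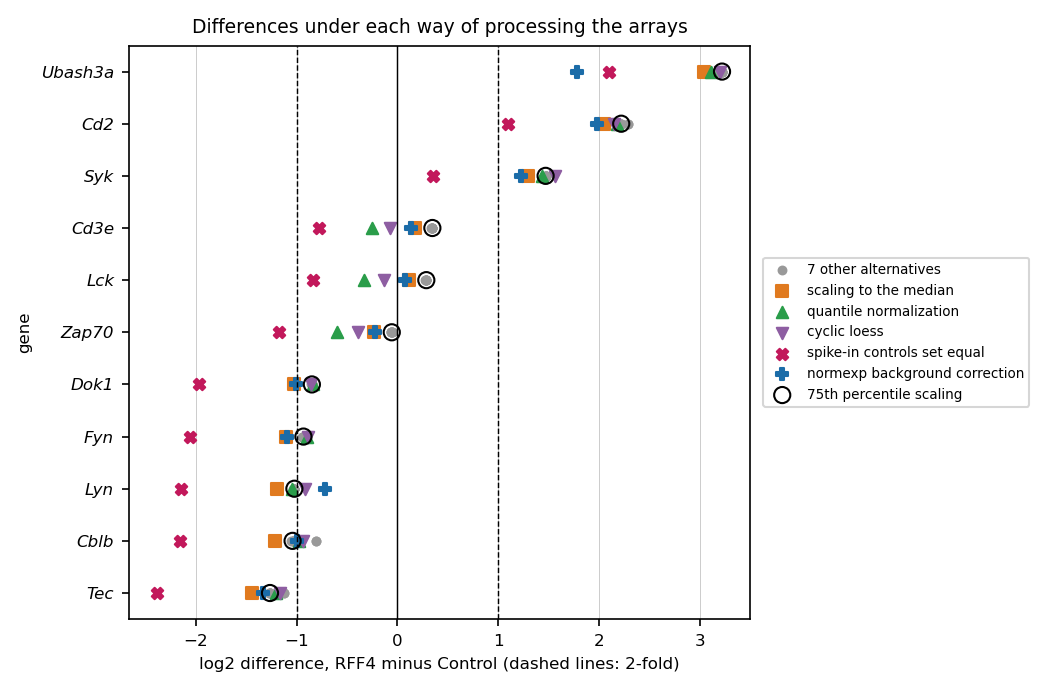
Log2 difference, RFF4 minus Control (horizontal axis), of 11 genes under 75th percentile scaling (open circles) and 12 alternatives (other symbols), with 1 array per genotype. Dashed lines mark 2-fold. Ubash3a, Cd2 and Tec stayed outside the dashed lines under every setting, while Cd3e and Lck lay on both sides of 0.

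A further 49 genes of the TCR pathway outside the 45 were listed, and the 46 that had a difference gave a median of -0.08. Of these, 4 were more than 2-fold higher (8.70%, against 12.3% of all genes) and 2 more than 2-fold lower (4.35%, against 5.05%), so neither share was above that of the array. Cd226, an activating adhesion receptor, was at -0.28 in Control and 1.71 in RFF4, or 3.99-fold higher. The higher genes also included the adaptor Dok3 (1.80) and the Tec family kinase Btk, which was dim in Control and at least 3.54-fold higher. Dok3 and Btk, which were higher, and Fgr, which was lower, are best known from B cells and myeloid cells. The Src family kinase Fgr (-1.10) and Rasa2 (-1.15), a brake on Ras, were lower.

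Epithelial, macrophage, B cell and mast cell markers had medians above 1 in RFF4 over Control, with exceptions within the lists. All 15 epithelial genes had a higher level in RFF4 (median difference 1.55, range 0.31 to 1.86), with 12 of them past 2-fold (80.0%, against 12.3% of all genes), and their log2 summed level was 7.85 in Control and 9.45 in RFF4. Of 13 macrophage and dendritic cell genes, 11 had a difference, all above 0 (median 1.45, range 0.20 to 3.57), with 9 of them past 2-fold (81.8%), with a log2 summed level of 6.08 and 6.58 that rests mostly on the bright probes of Itgax (5.52 and 5.73) and Itgam (4.32 and 5.24). Cx3cr1, a receptor of intestinal macrophages, was at -4.68 and -1.10, and C1qa and C1qc were below background in Control. Of 9 B cell genes, 6 had a difference (median 1.25), with a log2 summed level of 4.74 and 5.87. That sum rests mostly on Jchain (3.90 and 5.58) and Cd79b (3.42 and 3.17), which differed in direction. Cd79a and Pax5 were among those below background on both arrays. Of 8 mast cell genes, 7 had a difference, with a log2 summed level of 3.57 and 3.65. Their median of 1.87 is the bound of Fcer1a, which was dim in Control and counted only through its level in RFF4. Kit, at 3.32 and 1.86 (-1.46), made up most of the Control sum, and Ms4a2 was below background on both. The part of such cells in the differences of Syk, Lyn, Fgr, Btk, Dok3, Fcer1g and Lat2, which myeloid, mast or B cells also express, was not tested. In pooled RNA, a change in the share of such cells and a change in RNA per cell cannot be told apart.

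Markers of T cells outside the set did not move as 1 group: 7 of 10 had a difference, with a median of 0.34, and Cd28, the costimulatory receptor, was 1.26 higher, while Cd27, another costimulatory receptor, was at -0.99, with -1.15 in its other probe. Of 6 NK and innate lymphoid genes, 4 had a difference (median -0.33), and Klrb1c was past 2-fold lower (-1.89, with -1.73 in its other probe). Of the genes that define the sorted cells, Cd3e, Cd3d, Cd3g and Cd8a were well above background on each array. Cd4, which was gated out, gave 1.67 in Control and 1.80 in RFF4 with its brighter probe and -3.88 and -5.20 with the other, so that its absence cannot be stated from these probes. Of the γδ T cell genes, Sox13 alone was measured under a RefSeq symbol, at -1.28 and -0.50.

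**Figure D5:**
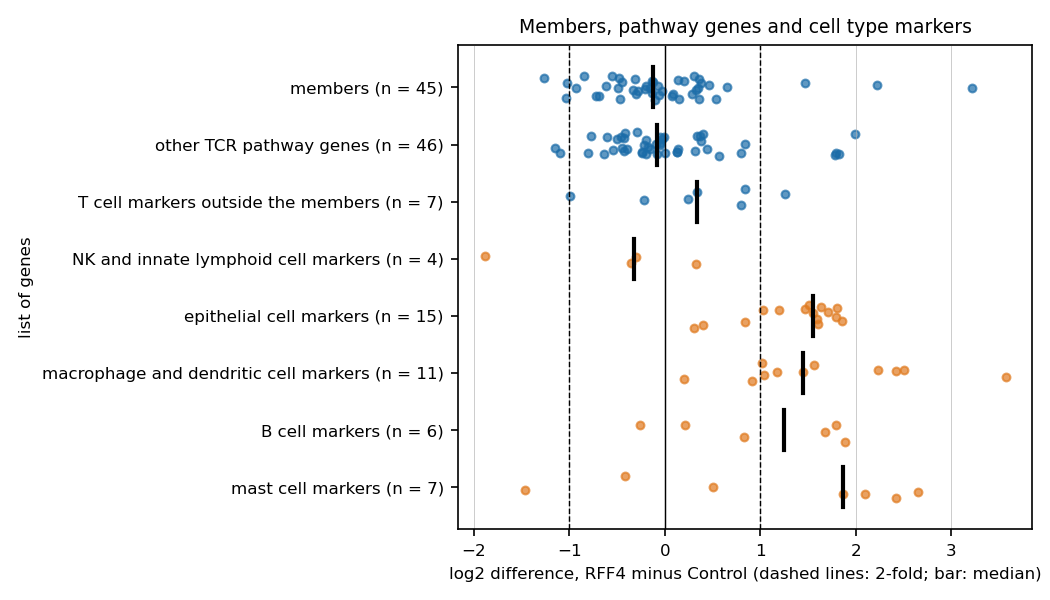
Log2 difference, RFF4 minus Control (horizontal axis), of every gene with a difference in 8 lists, with a black bar at each median. Blue points are the 45 genes, the other TCR pathway genes and other T cell genes, and orange points are markers of other cells. The medians of the 45 genes and the other pathway genes lie near 0, at -0.12 and -0.08. Those of epithelial, macrophage, B cell and mast cell markers lie between 1.25 and 1.87, and the mast cell median of 1.87 is a bound.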

How the data were processed

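RNA from sorted TCRαβ+CD8αα+ IELs was hybridised to 2 Agilent mouse arrays of 62976 spots, which share a slide and were scanned together, so slide and scan do not separate the genotypes. Per the file headers, the authors' Agilent Feature Extraction 10.7.1.1 subtracted background from each spot, and the deposited intensity values are linear, with no normalization between arrays. The authors also deposited a table of score values in 2 columns, with 6231 of 62976 lines without a value and 924 that repeat a probe. In 55840 lines the columns sum to 0 within 0.001, as log2 values centered per probe would, while 905 lines with a value do not, and their scale stays unknown. For all 55280 probes compared, its difference was that of the log2 scanner signals shifted by 1.16, within 0.01. This settles the scale and direction of the difference for those probes (column medians -0.20 and 0.20). The study names GeneSpring for the normalization, and its settings are not given in the sources used here.

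From the intensity values, log2 signals were taken with no pseudocount, control spots and outlier spots (102 and 131) were left out, and each array's 75th percentile (8.99 and 7.82) was subtracted. No spot was saturated. Spots of a probe were averaged, and a probe counted as well above background where 50% or more of its spots did. The median signal over background was 9.47 in Control and 5.78 in RFF4. Of 55679 probes, 29150 carry an accession of RefSeq type and 27509 of these matched a symbol of GRCm38.p6. The brightest probe stood for a gene. A probe dim on 1 array gave a bound against the lowest level well above background there (-5.51 and -4.29), or against its own level where that was higher, as for Cd8b1 and Btk. Such bounds stood for 558 genes, while 711 with a bound under 1-fold and 6663 dim on both arrays were given none. The number of arrays limits the precision, and a call means a difference past 2-fold with no test.

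The rule for naming allowed all 45 genes, other TCR pathway genes past 2-fold or related to one of the 45, and up to 4 genes of each marker list. Some genes of these lists are counted but not reported here by name. The genes, lists and pairs were chosen with earlier results of these data known. Scripts were tested on simulated data. Python 3.11.15, pandas 2.3.3, R 4.3.3 and limma 3.58.1 were used. The alternatives were cyclic loess, quantile normalization, the median as the scaling point, 8 spike-in control probes set equal, normexp correction with an offset of 50 on median spot signals, the authors' table, the mean of all or of well detected probes, no bounds, no filter, genes detected on both arrays, and outlier spots kept.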

Additional observations from a re-analysis of the deposited data

How the results depend on the processing

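With 1 array per genotype no array could be left out, and the depth of signal limits genes near background, such as Ubash3a and Cd8b1. No paired analysis was possible because each genotype has 1 array. Over 12 alternatives, the count of genes more than 2-fold higher was 3, except with spike-in scaling, where Syk was not among the 2. The count of genes more than 2-fold lower was 3, beside 5.05% of all genes. It became 5 with scaling to the median (Cblb, Dok1, Fyn, Lyn and Tec), beside 7.98%. With cyclic loess it was 1 (Tec), beside 4.84%, and with spike-in scaling 29, beside 56.7%. It was 2 with quantile normalization (beside 5.35%) and with both means of probes (beside 4.76% and 4.25%), each time Lyn and Tec. Normexp gave another 3, Dok1, Fyn and Tec (beside 3.67%). The median difference of the 45 genes was -0.12 and became -0.29 with scaling to the median, -0.24 with quantile normalization, -0.28 with normexp and -1.24 with spike-in scaling, where the median over all genes was -0.18, -0.05, -0.01 and -1.10. Of the other TCR pathway genes, 6 were past 2-fold in either direction, beside 12.3% of all genes higher and 5.05% lower. With spike-in scaling 30 were, all of them lower, beside 56.7% of all genes. The cause was not tested. None of the 6 genes past 2-fold changed sign in these settings. Normexp, and the settings that need a probe well above background on both arrays, gave no value for Cd8b1.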
